A study of Mus musculus with 2 samples.

Results

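*Isl1*, *Pou4f1*, *Pou4f2*, *Ebf1* and *Ebf3* encode transcription factors of the retinal ganglion cell fate, and they were taken by name, 5 of the 31053 genes in the feature list of the count matrices. Their counts of unique molecular identifiers (UMIs, 1 for each captured transcript) were followed cell by cell in 2 single-cell libraries of mouse eye cups at e13.5 (embryonic day). The cornea, lens and optic nerve had been removed before the cups were dissociated with papain and sequenced with 3′ droplet chemistry. The control library came from *Myrf* fl/fl eye cups, which carry the floxed *Myrf* allele without Cre. The mutant library came from Rx>cre *Myrf* fl/fl eye cups, in which the Rx transgene expresses Cre in the early eye field and deletes *Myrf* in the tissues that arise from it. Each library was a pool of 3 samples, so that differences between embryos cannot be seen and no replicate stands behind any difference between the genotypes. No test was run for this reason. All intervals are exact 95% intervals (Poisson for counts, Clopper-Pearson for shares, conditional binomial for ratios), and they cover counting error only.

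Ganglion cells are the projection neurons of the retina and the first neurons it makes. Progenitors that leave the cell cycle and express the bHLH factor *Atoh7* become competent for this fate, and the LIM-homeodomain factor *Isl1* and the POU-domain factor *Pou4f2* (Brn3b) are then switched on and act on shared target genes in axon growth and survival. *Pou4f1* (Brn3a) is a POU-domain factor of ganglion cell subsets and of peripheral sensory neurons. *Ebf1* and *Ebf3* belong to the EBF family of helix-loop-helix factors, which are active in newborn neurons in many places and, for *Ebf1*, in mesenchyme and B lymphocytes.

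All of these genes are protein-coding in GENCODE vM21 on GRCm38. *Isl1* (ENSMUSG00000042258) lies on the minus strand at chr13:116298281-116309689 with 6 exons in its longest transcript. *Pou4f1* (ENSMUSG00000048349) lies on the minus strand at chr14:104461676-104467999 with 3 exons, and *Pou4f2* (ENSMUSG00000031688) on the minus strand at chr8:78433010-78436645 with 2. *Ebf1* (ENSMUSG00000057098) covers chr11:44617317-45008091 on the plus strand, and *Ebf3* (ENSMUSG00000010476) covers chr7:137193673-137314445 on the minus strand, each with 16 exons. The homeodomain members overlapped no other annotated gene. *Ebf1* overlapped 1 gene on the opposite strand (Gm12158, 12 UMIs in all kept cells) and *Ebf3* overlapped 2 (Gm45278 with 3 UMIs and Gm10578 with 56).

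The 250 bases in front of the RefSeq transcription start (GRCm38.p6) are shown for the 3 homeodomain members, because most of their UMIs lay in ganglion cell-like cells in both libraries. Each sequence is written 5′ to 3′ on the strand of the gene, and capitals mark matches to CANNTG, the core bound by bHLH factors such as *Atoh7*, or to TAAT on either strand, the core bound by homeodomain factors. The windows are chr13:116309689-116309938 for *Isl1*, chr14:104468000-104468249 for *Pou4f1* and chr8:78436648-78436897 for *Pou4f2*.
Isl1: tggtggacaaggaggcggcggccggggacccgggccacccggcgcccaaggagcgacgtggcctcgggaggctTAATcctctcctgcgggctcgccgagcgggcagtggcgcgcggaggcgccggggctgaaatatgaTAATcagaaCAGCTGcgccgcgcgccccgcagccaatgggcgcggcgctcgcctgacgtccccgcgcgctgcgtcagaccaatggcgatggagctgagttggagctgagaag
Pou4f1: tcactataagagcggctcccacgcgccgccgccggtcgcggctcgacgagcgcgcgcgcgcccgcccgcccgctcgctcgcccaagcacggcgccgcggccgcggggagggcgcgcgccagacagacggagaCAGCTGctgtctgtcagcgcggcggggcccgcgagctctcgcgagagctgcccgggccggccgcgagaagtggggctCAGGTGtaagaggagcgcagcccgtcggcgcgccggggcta
Pou4f2: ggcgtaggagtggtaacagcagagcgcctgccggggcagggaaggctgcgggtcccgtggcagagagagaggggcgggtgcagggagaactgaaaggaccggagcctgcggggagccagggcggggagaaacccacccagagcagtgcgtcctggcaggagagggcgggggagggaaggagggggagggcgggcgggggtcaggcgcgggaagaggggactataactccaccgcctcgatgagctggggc
The *Isl1* window held CANNTG once, 103 bases before the start, and TAAT at 177 and 112 bases before it. *Pou4f1* held CANNTG at 118 and 41 bases before the start and no TAAT, whereas the *Pou4f2* window held neither. These letters are common: 66.2% of the 32851 promoter windows of the same length held CANNTG and 54.9% held TAAT. The windows were rich in G and C, at 71.2% for *Isl1*, 78.0% for *Pou4f1* and 70.8% for *Pou4f2*, and 92.2%, 97.9% and 91.7% of all windows, respectively, had less.

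After filtering, 5468 of 6039 control barcodes and 6300 of 6754 mutant barcodes were kept, with medians of 11332 and 11154 UMIs per cell. Of the kept barcode sequences, 67 occurred in both libraries. The cells fell into 28 clusters that were made without the 5 genes, *Atoh7* or the related genes counted here. Marker lists named 23 of the clusters, which formed 14 classes. *Myrf* itself was at 74.5 counts per 1000000 UMIs (CPM) in the RPE-like cells of the control, on 155 UMIs, and 20.1 CPM in those of the mutant, on 30 UMIs. The 5 unnamed clusters held 1151 and 1052 cells, most of them with few UMIs or mixed markers, and none of them had the ganglion cell list as its best match. Unnamed cluster 17 (135 control and 144 mutant cells, median 14096 UMIs) best matched the periocular mesenchyme list but was not counted in that class.

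Ganglion cell-like cells were 384 in the control library, or 7.02% (6.36–7.73) of kept cells, and 537 in the mutant library, or 8.52% (7.85–9.24). They made up 2 clusters, named from axonal and synaptic genes such as *Stmn2*, *Nefl*, *Nefm*, *Sncg* and *Gap43*, and the summed level of the 9 listed markers was 8054 CPM in the control and 9002 in the mutant. Of these markers, 1 stood at 0 in each library. Markers of peripheral neurons, which also express *Isl1* and *Pou4f1*, summed to 70.9 and 105 CPM in the same cells, with all 7 of the list detected. Haemoglobin and other red cell transcripts summed to 9978 and 2037 CPM, so that the ganglion cell-like cells of the control carried more red cell RNA. Neurogenic precursor-like cells went the same way, at 8057 and 771 CPM. The order was the reverse in retinal progenitor-like cells, at 368 and 2044, and in periocular mesenchyme-like cells, at 608 and 1949. The part of red cell RNA in the values given here was not tested.

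*Isl1* was the most restricted of the genes together with *Pou4f2*. The control library held 4365 *Isl1* UMIs in ganglion cell-like cells, a level of 1209 (1174–1246) CPM, and the mutant library held 5577, a level of 1231 (1199–1264). These cells were 7.02% and 8.52% of all cells, but contained 86.0% of the *Isl1* UMIs of the control and 84.1% of those of the mutant. Neurogenic precursor-like cells, the cells with the highest *Atoh7* counts, held a further 9.72% and 11.8%. Retinal progenitor-like cells had 2.84 (2.12–3.74) CPM of *Isl1* in the control and 3.16 (2.38–4.11) in the mutant.
The levels of *Isl1* thus ran from ganglion cell-like over neurogenic precursor-like to progenitor-like cells in both libraries, with no overlap of the intervals. Among the remaining classes the order often rested on single cells. In the amacrine or horizontal cell-like class, at 16.4 (7.88–30.2) and 64.2 (47.0–85.6) CPM, 35 of the 46 mutant UMIs lay in 1 cell. Cells with 5 or more *Isl1* UMIs numbered 226 in the control, of which 192 were ganglion cell-like and 31 neurogenic precursor-like, and 314 in the mutant, of which 256 and 54 were.

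**Figure D1:**
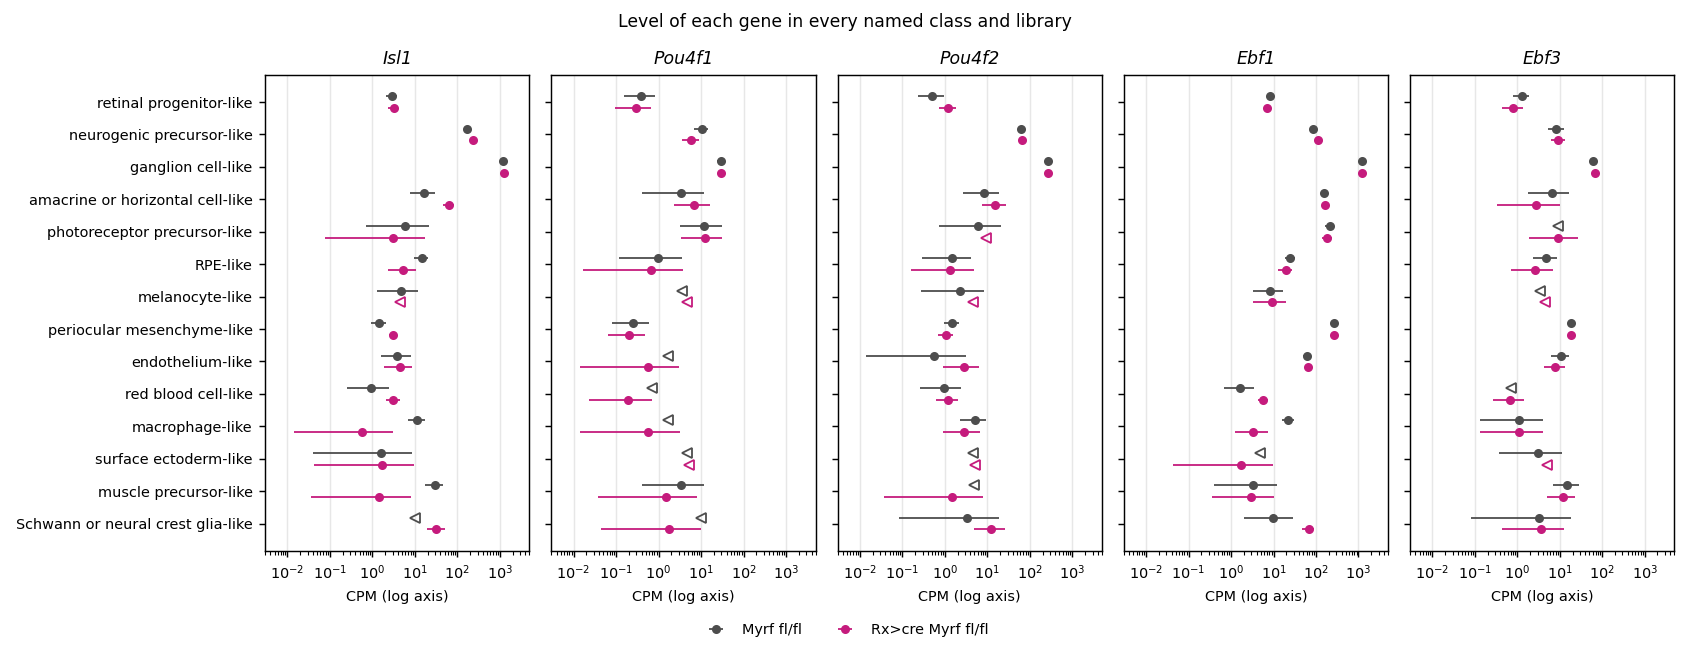
CPM (log axis) of each gene in the summed cells of every named class, in the control library (grey) and the mutant library (magenta), with exact 95% Poisson intervals. Open triangles mark classes with no UMI, drawn at the level of 3 counts. The *Isl1*, *Pou4f1* and *Pou4f2* points are highest in ganglion cell-like cells (1209 and 1231 for *Isl1*), while *Ebf1* is also high in periocular mesenchyme-like cells (268 and 265).

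*Pou4f2* had the same distribution at lower counts. Ganglion cell-like cells held 950 control UMIs, 263 (247–280) CPM, and 1220 mutant UMIs, 269 (254–285) CPM. Neurogenic precursor-like cells were at 62.5 (53.8–72.3) and 66.9 (58.3–76.3) CPM, and progenitor-like cells at 0.502 (0.229–0.952) and 1.20 (0.746–1.84).
Ganglion cell-like cells accounted for 78.4% of the *Pou4f2* UMIs of the control and 78.9% of the mutant, and neurogenic precursor-like cells for 14.9% and 14.2%. Over the 14 classes the log2 levels of *Pou4f2* and *Isl1* had a Pearson r of 0.950 in the control and 0.989 in the mutant, a description over points that share their libraries.

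*Pou4f1* was sparse. It had 107 UMIs in ganglion cell-like cells of the control, 29.6 (24.3–35.8) CPM, and 136 in the mutant, 30.02 (25.2–35.5) CPM. No cell of the control held more than 4 *Pou4f1* UMIs and none of the mutant more than 7. Neurogenic precursor-like cells were at 10.4 (6.99–14.8) and 5.77 (3.48–9.02) CPM, and photoreceptor precursor-like cells at 11.9 (3.24–30.4) and 12.3 (3.36–31.5), on 4 UMIs in each library. In photoreceptor precursor-like cells these UMIs lay in 1 control cell and in 3 mutant cells. The intervals of these last 2 classes overlapped, so that their order could not be set at this depth. Those of photoreceptor precursor-like cells also overlapped those of ganglion cell-like cells in both libraries, so that this order was not resolved either.

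*Ebf1* and *Ebf3* were shared between the retina and the tissue around it. *Ebf1* was at 1195 (1160–1231) CPM in ganglion cell-like cells of the control and 1230 (1198–1263) in the mutant, and at 268 (261–276) and 265 (258–271) in periocular mesenchyme-like cells. As the mesenchyme was the largest class, it held 49.8% and 49.3% of all *Ebf1* UMIs, more than the 40.4% and 41.8% of the ganglion cell-like cells. *Ebf3* was at 60.7 (52.9–69.3) and 66.0 (58.7–73.9) CPM in ganglion cell-like cells and at 18.3 (16.4–20.3) and 18.2 (16.6–19.96) in the mesenchyme, which held 51.5% and 52.0% of its UMIs.
*Ebf1* was also present in other young retinal neurons. Photoreceptor precursor-like cells had 211 (165–266) and 182 (138–234) CPM of *Ebf1*, amacrine or horizontal cell-like cells 158 (128–193) and 166 (137–199), and neurogenic precursor-like cells 87.1 (76.7–98.5) and 109 (97.8–121). Endothelium-like cells stood at 59.9 (49.1–72.3) and 66.1 (54.7–79.1). The first pair of classes did not differ beyond their intervals in either library, and both lay above the endothelium-like cells.

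The mesenchyme was not uniform in the EBF genes. It comprised 6 clusters, and *Ebf1* ranged from 176 (165–188) CPM in cluster 2 (led by *Nbl1* and *Twist1*) to 475 (444–507) in cluster 15 (led by *Osr2* and *Foxl2*) in the control. In the mutant the lowest was cluster 6 (with cell cycle genes) at 193 (182–204) and the highest cluster 11 (led by *Meox1* and *Scx*) at 429 (408–451). *Ebf3* ran from 3.32 (1.94–5.32) CPM in cluster 2 to 45.5 (37.2–55.2) in cluster 11 of the control, and from 5.58 (3.97–7.63) to 40.6 (34.3–47.7) in the same clusters of the mutant.
The widest gap between the libraries among these clusters was in cluster 15, where *Ebf1* was at 475 (444–507) CPM in 133 control cells and 300 (278–323) in 165 mutant cells, on 906 and 690 UMIs. *Ebf3* in the same cluster was at 28.8 (21.7–37.5) and 26.5 (20.3–34.1). This cluster was picked out after its values were seen, and the 6 clusters are neither samples nor replicates.

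**Figure D2:**
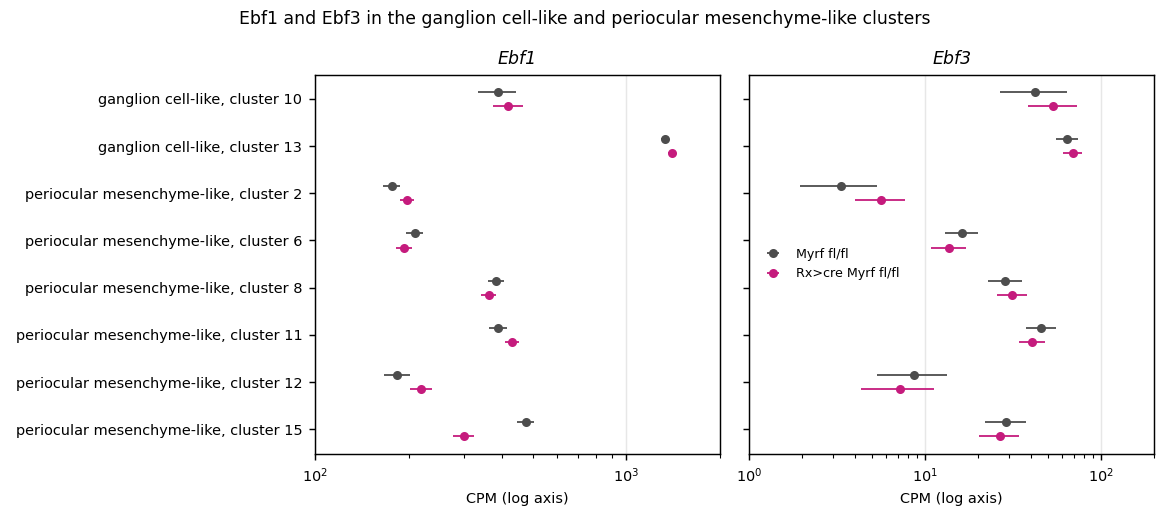
CPM (log axis) of *Ebf1* (left) and *Ebf3* (right) in the clusters of ganglion cell-like and periocular mesenchyme-like cells, control in grey and mutant in magenta, with exact 95% Poisson intervals. *Ebf1* in cluster 15 of the mesenchyme is at 475 in the control and 300 in the mutant, and the deeper ganglion cell-like cluster is highest for both genes.

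Within each library the step from progenitor to ganglion cell was set against that of all genes. Of the genes tested, 3.18% were at least 8-fold higher in ganglion cell-like than in progenitor-like cells of the control and 3.53% in the mutant, and all 5 of the members were, in both. *Pou4f2* was 473-fold higher in the control and 214-fold in the mutant, *Isl1* 417-fold and 383-fold, and *Ebf1* 140-fold and 173-fold. *Pou4f1* was 67.1-fold and 87.8-fold higher and *Ebf3* 45.6-fold and 76.9-fold. The denominators of *Pou4f1* and *Pou4f2* were small, between 5 and 21 UMIs, so these folds are imprecise. Levels in progenitor-like cells were close to those of red blood cell-like cells for *Pou4f2* (0.947 and 1.17 CPM), so its folds in particular have a denominator that free RNA can set. The class totals of red blood cell-like cells are mostly red cell transcripts, so that their CPM can understate free RNA.
In neurogenic precursor-like cells, the step before, *Isl1* was 58.9-fold and 74.1-fold higher than in progenitor-like cells, *Pou4f2* 113-fold and 53.2-fold, and *Ebf1* 10.2-fold and 15.3-fold. There 1.29% and 1.33% of all genes passed 8-fold, and 4 members did in the control and 5 in the mutant. From neurogenic precursor-like to ganglion cell-like cells *Ebf1* was higher by 13.7-fold and 11.3-fold, *Isl1* by 7.09-fold and 5.17-fold, *Pou4f2* by 4.19-fold and 4.01-fold. *Ebf1* alone of the 5 passed 8-fold at this step, as did 1.45% and 1.55% of all genes. On these levels and a fold scale, *Ebf1* increased by similar amounts at both steps, and *Pou4f2* and *Isl1* mainly at the earlier. The first step of *Ebf1* also has a denominator that free RNA can enter. It was at 8.47 and 7.06 CPM in progenitor-like cells, against 1.66 and 5.65 in red blood cell-like cells. The part of free RNA in the sizes of the steps was not tested.

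The 2 ganglion cell-like clusters differed in depth and in the level of the 5 genes. The deeper cluster held 183 control and 240 mutant cells with a median of 16132 UMIs, and the shallower cluster 201 and 297 cells with a median of 1726. *Isl1* stood at 1323 (1283–1364) CPM in the deeper control cells and 534 (473–601) in the shallower ones, and at 1365 (1328–1403) against 573 (520–629) in the mutant. *Ebf1* stood at 1331 (1291–1373) against 386 (335–443) in the control and 1397 (1359–1435) against 417 (372–465) in the mutant. *Pou4f2* was at 282 and 288 CPM in the deeper cells and 152 and 180 in the shallower ones, and *Pou4f1* at 32.7 and 33.8 against 11.5 and 11.7. In CPM each of these genes was lower in the shallower cluster in both libraries, while for *Ebf3*, at 63.8 (55.2–73.3) against 42.3 (26.5–64.0) in the control, the intervals overlapped.

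Because detection rests on depth, shares of cells with a UMI were compared after every cell was thinned to 3000 UMIs, which left out 142 control and 225 mutant ganglion cell-like cells as too shallow. In the 242 and 312 cells that remained, *Isl1* was detected in 83.9% (78.6–88.3) of the control and 87.5% (83.3–91.0) of the mutant, and *Ebf1* in 79.8% (74.1–84.6) and 80.4% (75.6–84.7). *Pou4f2* was detected in 51.2% (44.8–57.7) and 50.6% (44.9–56.3), *Ebf3* in 12.4% (8.52–17.2) and 14.4% (10.7–18.8), and *Pou4f1* in 7.44% (4.47–11.5) and 6.09% (3.71–9.35). The intervals of the libraries overlapped for each gene. Averaged over all possible draws of 3000 UMIs, the share for *Isl1* was 86.0% and 87.7%. Without thinning, in all 384 and 537 cells (median depths 5098.5 and 4934 UMIs), the shares were 70.8% and 72.1% for *Isl1*, 69.0% and 66.7% for *Ebf1*, 58.9% and 57.7% for *Pou4f2*, 33.6% and 29.98% for *Ebf3*, and 17.4% and 15.5% for *Pou4f1*.
As a background for free RNA, the red blood cell-like class, in which none of these genes is normally transcribed, was used at median depths of 22476.5 and 22723.5 UMIs. Red cell transcripts summed to 850975 and 817044 CPM in this class, so that most UMIs of a draw are red cell RNA. The class can therefore understate the free RNA in other classes. At 3000 UMIs, *Isl1* was detected in 0.562% of 178 control and 0.726% of 413 mutant cells of this class, *Ebf1* in 0 control cells, where a floor of 3 cells allows up to 1.69%, and in 1.69% of mutant cells, and *Pou4f2* in 0 control cells and 0.726% of mutant cells. Progenitor-like cells showed *Isl1* in 0.748% (0.342–1.41) and 0.805% (0.386–1.47) and *Pou4f2* in 0.166% and 0.241%. The intervals of these shares overlapped those of the background, and the control share of *Pou4f2* lay under the floor, so that expression could not be told from free RNA at this depth. In neurogenic precursor-like cells, *Isl1* was detected in 21.3% (15.8–27.7) and 26.0% (20.6–32.0), *Ebf1* in 14.7% (10.1–20.5) and 19.4% (14.6–25.0) and *Pou4f2* in 15.7% (10.9–21.6) and 13.6% (9.58–18.6). These shares lay above those of the red blood cell-like class, which can be too low a background. The 37 and 23 shallower cells of this class were left out, and unthinned shares were 29.5% and 34.3% for *Isl1*, 35.9% and 38.1% for *Ebf1* and 26.5% and 27.2% for *Pou4f2*.

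Single cells often held several of the factors. Among ganglion cell-like cells at 3000 UMIs, *Isl1*, *Pou4f2* and *Ebf1* were detected together in 43.8% (37.5–50.3) of the control and 43.6% (38.0–49.3) of the mutant. A further 29.8% (24.1–35.9) and 34.3% (29.0–39.9) held *Isl1* and *Ebf1* without *Pou4f2*, and 9.50% (6.12–13.9) and 8.65% (5.78–12.3) held none of the 3. These combinations move with depth: without thinning, all 384 and 537 cells gave 50.8% and 48.2% with all 3 genes, 10.2% and 11.2% with *Isl1* and *Ebf1* only, and 19.5% and 18.4% with none. In the deeper cluster, *Pou4f2* was detected in 95.1% and 93.3% of unthinned cells, so a thinned cell without a *Pou4f2* UMI is not a cell shown to lack it. *Pou4f2* without *Isl1* was rare, in 7 of 242 control and 7 of 312 mutant cells.
*Isl1* was detected in more cells than *Pou4f2* at this depth, which by itself makes the share of *Pou4f2* cells with *Isl1* larger than the reverse. Of ganglion cell-like cells with a *Pou4f2* UMI, 94.4% (88.7–97.7; 117 of 124) also had an *Isl1* UMI in the control and 95.6% (91.1–98.2; 151 of 158) in the mutant. Of those without a *Pou4f2* UMI, 72.9% (63.9–80.7) and 79.2% (72.0–85.3) did. In the other direction, *Pou4f2* was found in 57.6% (50.5–64.5) and 55.3% (49.2–61.3) of cells with *Isl1* and in 17.9% (7.54–33.5) of those without it in either library. In the deeper cluster alone, 97.1% (91.9–99.4) and 99.2% (95.8–100) of cells with *Pou4f2* had *Isl1*, but *Isl1* was detected in 94.5% and 97.9% of all cells there, so that little contrast remained. The part of the difference between the clusters in these shares was not tested.

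**Figure D3:**
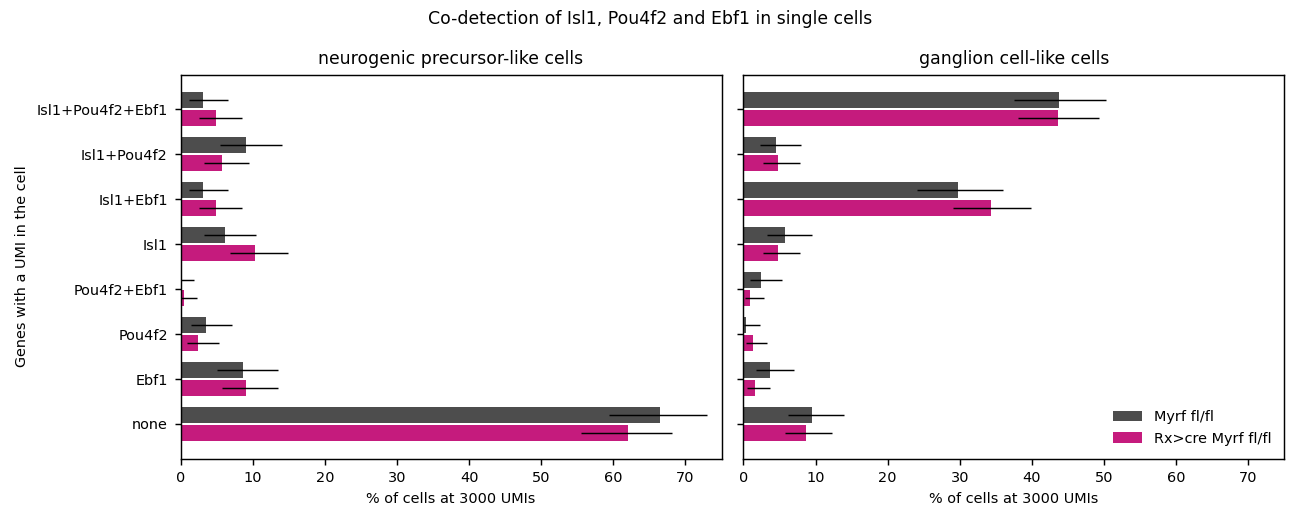
Share of neurogenic precursor-like (left) and ganglion cell-like cells (right) with each combination of *Isl1*, *Pou4f2* and *Ebf1* UMIs after thinning to 3000 UMIs, control in grey and mutant in magenta, with exact 95% binomial intervals. All 3 genes were detected together in 43.8% and 43.6% of ganglion cell-like cells and in 3.05% and 4.96% of neurogenic precursor-like cells, where 66.5% and 62.0% held none. Without thinning, all 3 were detected together in 11.5% and 17.0% of neurogenic precursor-like cells and none in 46.2% and 47.2%.

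In neurogenic precursor-like cells the pairing of *Pou4f2* with *Isl1* stood out against a low base. *Isl1* was detected in 77.4% (58.9–90.4; 24 of 31) of control and 78.8% (61.1–91.0; 26 of 33) of mutant cells with *Pou4f2*, against 10.8% (6.55–16.6) and 17.7% (12.8–23.6) of those without. *Ebf1* was found in 28.6% (15.7–44.6) and 38.1% (26.1–51.2) of cells with *Isl1* there, against 10.97% (6.52–17.0) and 12.8% (8.32–18.7) of those without. The commonest pair in the control was *Isl1* with *Pou4f2* and no *Ebf1*, in 9.14% (5.51–14.1) of the cells, and its share in the mutant was 5.79% (3.20–9.52). In ganglion cell-like cells this pair stood at 4.55% (2.29–7.99) and 4.81% (2.72–7.81), while *Isl1* with *Ebf1* was the commoner pair.

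In ganglion cell-like cells, *Ebf1* was detected more often in cells with *Isl1* than in cells without it. It was detected in 87.7% (82.4–91.9) of control and 89.0% (84.7–92.5) of mutant cells with *Isl1*, and in 38.5% (23.4–55.4) and 20.5% (9.30–36.5) of those without. These shares pool both ganglion cell-like clusters. In the shallower cluster *Isl1* was detected in only 32 of 61 control and 39 of 73 mutant cells at this depth, and *Ebf1* had a lower CPM there too. The part of the cluster mix in these and the following shares of ganglion cell-like cells was not tested. Among all ganglion cell-like cells at this depth, *Ebf1* was detected in 193 of 242 control and 251 of 312 mutant cells. The counts for the sparse members are small and stand against this high base. All 18 control and 18 of 19 mutant cells with *Pou4f1* held *Ebf1*, and 28 of 30 control and 45 of 45 mutant cells with *Ebf3* did. *Pou4f1* did not go with *Pou4f2* in the same way: *Pou4f2* was detected in 8 of 18 control and 5 of 19 mutant cells with *Pou4f1*, against 51.8% (45.0–58.5) and 52.2% (46.3–58.1) of cells without it, and the intervals (21.5–69.2 and 9.15–51.2) overlapped those shares. *Ebf3* was seen in 5 of 18 and 7 of 19 cells with *Pou4f1*, or 27.8% (9.69–53.5) and 36.8% (16.3–61.6), against 11.2% (7.35–16.0) and 12.97% (9.34–17.4) without.
In the periocular mesenchyme, *Ebf1* was detected in 59.7% (47.5–71.1) of control and 71.3% (61.4–79.9) of mutant cells with *Ebf3*, against 39.8% (37.1–42.4) and 40.2% (37.9–42.5) of those without. *Ebf1* thus reached 40.8% (38.2–43.4) and 41.9% (39.6–44.2) of mesenchyme-like cells at 3000 UMIs and *Ebf3* 5.14% (4.05–6.43) and 5.47% (4.48–6.61). The mesenchyme shares pool clusters that differ in the levels of both genes, as given before, and the part of this mix was not tested.

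The *Atoh7* count of a ganglion cell-like cell, which was used neither to choose nor to cluster the cells, separated the members. Cells were divided by *Atoh7* UMIs of 3000 into 0 to 4 (76 control and 94 mutant cells), 5 to 9 (72 and 96) and 10 or more (94 and 122). The bins pool both ganglion cell-like clusters, and the part of the cluster mix in the orders below was not tested. *Pou4f2* was detected in 45.7% (35.4–56.3) of the control cells with most *Atoh7*, in 75% (63.4–84.5; 54 of 72) of the middle cells and in 35.5% (24.9–47.3) of those with least. The corresponding mutant shares were 50% (40.8–59.2; 61 of 122), 66.7% (56.3–76.0) and 35.1% (25.5–45.6). *Pou4f2* was thus highest at intermediate *Atoh7* in both libraries, although in the mutant the intervals of the middle cells and of those with most *Atoh7* overlapped.
*Isl1* and *Ebf1* were lower in the cells with most *Atoh7* than in the middle cells, with no overlap of the intervals, whereas the middle cells and those with least *Atoh7* overlapped. *Isl1* went from 75.5% (65.6–83.8) over 93.1% (84.5–97.7) to 85.5% (75.6–92.5) in the control and from 81.1% (73.1–87.7) over 94.8% (88.3–98.3) to 88.3% (80.0–94.0) in the mutant. *Ebf1* went from 70.2% (59.9–79.2) over 91.7% (82.7–96.9) to 80.3% (69.5–88.5) in the control and from 71.3% (62.4–79.1) over 88.5% (80.4–94.1) to 84.0% (75.05–90.8) in the mutant. *Pou4f1* and *Ebf3* ran the other way from *Atoh7*. *Ebf3* was in 8.51% (3.75–16.1), 13.9% (6.87–24.1) and 15.8% (8.43–26.0) of the control cells from most to least *Atoh7*, and in 8.20% (4.00–14.6), 12.5% (6.63–20.8) and 24.5% (16.2–34.4) of the mutant cells. *Pou4f1* was in 3.19% (0.663–9.04) of the control cells with most *Atoh7* and 10.5% (4.66–19.7) of those with least, and in 2.46% (0.510–7.02) and 12.8% (6.77–21.2) of the mutant. The intervals of the extreme bins were apart for *Ebf3* in the mutant and overlapped for *Ebf3* in the control and for *Pou4f1* in both libraries, so that these orders were weakly resolved.

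**Figure D4:**
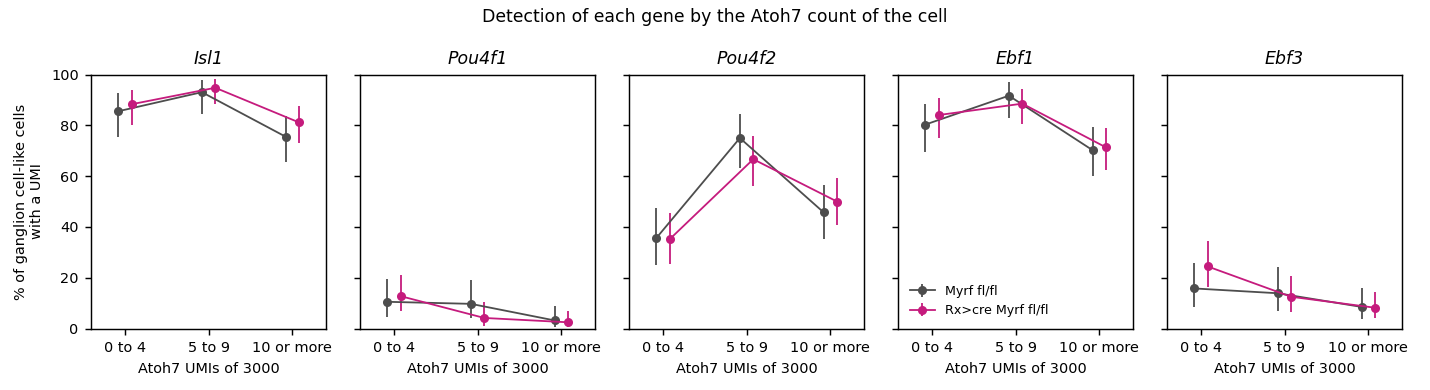
Share of ganglion cell-like cells with a UMI of each gene, by the number of *Atoh7* UMIs among 3000, control in grey and mutant in magenta, with exact 95% binomial intervals. *Pou4f2* peaks in the middle bin (75% and 66.7%), and *Pou4f1* and *Ebf3* are highest in the bin with least *Atoh7*.

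The genotypes were compared by the log2 ratio of mutant over control level in each class, with 1 UMI added to each sum. In ganglion cell-like cells, *Isl1* had a log2 ratio of 0.03 (−0.03 to 0.08), *Pou4f2* of 0.03 (−0.09 to 0.16) and *Ebf1* of 0.04 (−0.02 to 0.10). *Pou4f1* was at 0.02 (−0.36 to 0.40) and *Ebf3* at 0.12 (−0.14 to 0.38). None of the 5 members differed by 1.5-fold or more, a size that 8.48% of the 10553 genes with at least 20 UMIs in this class reached, and the median over all these genes was −0.02. For *Isl1*, *Pou4f2* and *Ebf1* the counting intervals lay within 1.5-fold in either direction, and so did those of *Pou4f1* and *Ebf3*, at the widest from −0.36 to 0.40.

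*Isl1* differed between the libraries in neurogenic precursor-like cells. It stood at 170 (156–186) CPM in 234 control cells and at 238 (221–255) in 265 mutant cells, on 493 and 782 UMIs, a log2 ratio of 0.48 (0.32 to 0.65). More mutant cells held many *Isl1* UMIs, with 54 cells (20.4%) at 5 or more against 31 (13.2%) in the control, while the shares of cells with any *Isl1* UMI overlapped as given before. *Ebf1* was at a log2 ratio of 0.32 (0.08 to 0.56), *Pou4f2* at 0.09 (−0.19 to 0.39) and *Ebf3* at 0.13 (−0.69 to 0.97). *Pou4f1*, with 30 and 19 UMIs, was at −0.82 (−1.75 to 0.03).
Of the 5 members 1, *Pou4f1*, reached 1.5-fold, as did 9.52% of the 9928 genes tested in this class. The Poisson interval treats UMIs as independent, whereas those of *Isl1* lay in 69 control and 91 mutant cells. The interval therefore leaves out the spread between cells, whose part in the difference was not tested. Red cell transcripts summed to 8057 CPM in the control cells of this class and 771 in the mutant. With class totals taken without mitochondrial, haemoglobin and ribosomal protein genes, the *Isl1* ratio was 0.50 (0.33 to 0.66). The ganglion cell marker list summed to 501 CPM in the control and 593 in the mutant cells of the class, and its part in the *Isl1* ratio was not tested.

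In retinal progenitor-like cells *Pou4f2* had 9 control and 21 mutant UMIs, each in a separate cell, and a log2 ratio of 1.18 (0.08 to 2.57), and *Ebf3* had 23 and 14 UMIs and a ratio of −0.64 (−1.75 to 0.34). These 2 of the 4 members tested there passed 1.5-fold, against 5.24% of all genes, at levels near those of red blood cell-like cells for *Pou4f2* (0.947 and 1.17 CPM). The levels in red blood cell-like cells can understate free RNA, as their totals are mostly red cell transcripts. *Isl1* (0.15, −0.43 to 0.73) and *Ebf1* (−0.26, −0.62 to 0.09) did not pass.
In periocular mesenchyme-like cells, where 5.68% of genes passed, *Ebf1* had a log2 ratio of −0.02 (−0.07 to 0.03) and *Ebf3* of −0.01 (−0.21 to 0.20), the narrowest intervals of the EBF genes in any class. *Isl1* was at 1.08 (0.47 to 1.80) there, on levels of 1.41 and 3.06 CPM. Red blood cell-like cells stood at 0.947 and 3.12 CPM, the latter with 19 of its 32 UMIs in 1 cell, so that they give no firm background for this ratio, and the part of free RNA in it was not tested. In smaller or non-retinal classes, 7 further ratios passed 1.5-fold. *Isl1* did so in amacrine or horizontal cell-like cells (where 15.8% of all genes passed) and RPE-like cells (17.3%), *Ebf1* in Schwann or neural crest glia-like cells (21.0%), and both genes in macrophage-like (15.6%) and red blood cell-like cells (39.4%). *Ebf1* did not pass in photoreceptor precursor-like cells (17.4%), nor *Ebf1* and *Ebf3* in endothelium-like cells (12.0%). In each of the 7 the cell with most UMIs of the gene held between 14 and 35, so that the ratios turned on a few cells. Outside the retinal classes and the mesenchyme, 3 control and 2 mutant cells had 5 or more *Isl1* UMIs.

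**Figure D5:**
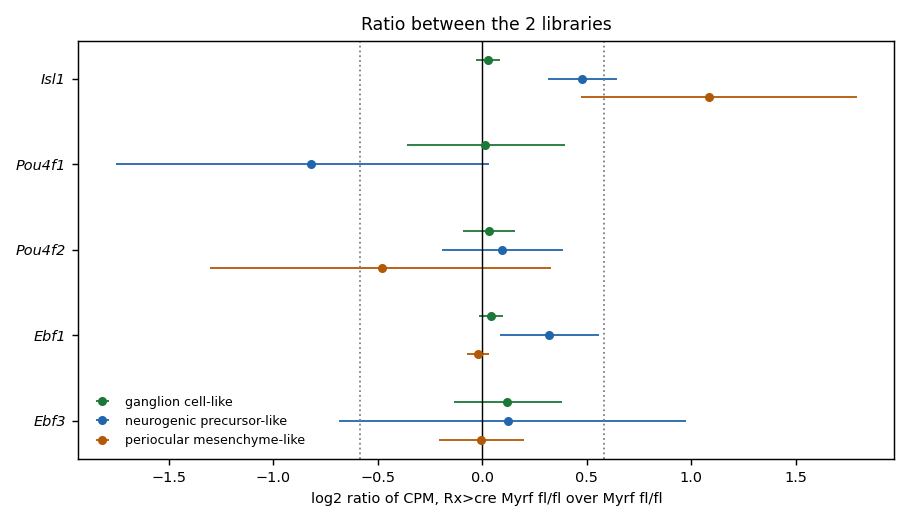
Log2 ratio of mutant over control level of each gene with exact 95% conditional binomial intervals, in the classes where the gene was tested. In ganglion cell-like cells the 5 ratios lie between 0.02 and 0.12, and *Isl1* in neurogenic precursor-like cells is at 0.48.

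Other genes of the ganglion cell programme gave the setting for these ratios in ganglion cell-like cells. Of 10 factors that act upstream of or beside the members, 4 were higher and 6 lower in the mutant and none passed 1.5-fold, with a median of −0.10. *Atoh7* was at 2897 and 2715 CPM (log2 ratio −0.09) and *Sox4*, an SRY-box factor required for ganglion cells, at 974 and 989 (0.02). Of 14 factors of later ganglion cells, 11 had enough counts, 6 of them higher and 5 lower, and 3 passed 1.5-fold, all higher in the mutant, where 3.28% of all genes did so. Among these, the Iroquois homeobox gene *Irx5* had an interval clear of 0, at 21.1 and 34.0 CPM (0.68, 0.29 to 1.11). *Tbx20*, a T-box factor with 9 and 21 UMIs, was another and is named after its values were seen.
Of 9 axonal and secreted products, 8 were tested and none passed. *Ina*, the neuronal intermediate filament internexin, was at 858 and 900 CPM (0.07) and *Stmn3*, a microtubule regulator, at 733 and 801 (0.13). The 7 cofactors and binding partners had a median of −0.05 with 1 past 1.5-fold (*Zfp521*, 11 and 22 UMIs). *Lmo1*, a LIM-only protein, was at 226 and 218 CPM (−0.05) and *Ssbp3*, which binds the LIM cofactor Ldb1, at 190 and 197 (0.05). The median over all genes was −0.02 beside these. Paralogues of the members were nearly absent from these cells: *Isl2* had 6 and 19 UMIs (1.19, −0.05 to 2.95), and *Pou4f3*, *Ebf2* and *Ebf4* each stayed under the 20 UMIs required for a ratio, with at most 11 UMIs in a library.

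The genes whose levels over the 14 classes were most like those of the members were chosen in the control library among 10839 genes, and r in the mutant is given beside. For *Isl1* the genes included *Igfbpl1* (r 0.866 and 0.904), *Elavl4* (0.861 and 0.942), an RNA-binding protein of neurons, and *Nefm* (0.860 and 0.872). For *Pou4f2* they were *Elavl4* (0.909 and 0.924), *Igfbpl1* (0.902 and 0.876), *Nrxn2* (0.880 and 0.737) and *Cntn2* (0.879 and 0.905), and for *Pou4f1* *Elavl4* (0.922 and 0.851), *Igsf21* (0.913 and 0.972), *Igfbpl1* (0.907 and 0.962) and *Elavl2* (0.896 and 0.927). *Elavl4* and *Igfbpl1* thus stood in the list of all 3 homeodomain members.
The EBF genes had other neighbours. *Ebf1* was closest to *Map1b* (0.877 and 0.866), *Irx2* (0.873 and 0.789), *Magee1* (0.866 and 0.548) and *Nkain3* (0.858 and 0.924), and *Ebf3* to *Begain* (0.902 and 0.832), *Nkain3* (0.850 and 0.693), *Nefl* (0.845 and 0.806) and *Sncg* (0.826 and 0.760). *Nefm*, *Nefl* and *Sncg* are also on the marker list that named the ganglion cell-like class, so that their high level in it is partly built in. The r values describe 14 classes that share 1 library each time.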

How the data were processed

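Single-cell RNA was measured in 2 libraries of e13.5 mouse eye cups, 1 per genotype, and libraries from other ages were not analysed here. The files hold raw UMI counts per gene and barcode as deposited by the authors. Per the labels' processing notes, Cell Ranger 7.1.0, Seurat 4.1.1 and mm10 were used (matrix header software version 3.0.0), and whether intronic reads were counted is not given in the sources used here.

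Barcodes with at least 200 genes and at most 15% mitochondrial UMIs were kept, and doublets marked by Scrublet (scanpy 1.11.5, 5% expected) were removed (51 of the control, 0.924%, and 74 of the mutant, 1.16%). Libraries were integrated and clustered in Seurat 5.3.0 (R 4.3.3) on 1973 of 2000 variable features, 30 dimensions and resolution 0.8. The members, *Atoh7* and 5 lists of 44 related genes were kept out of the features. Clusters were named from marker lists, with at least 3 markers raised 1.5-fold. The naming thresholds were set after the clusters were seen, and the members and lists were chosen with earlier results of these data known.

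UMIs were summed per class and library and given as counts per 1000000 UMIs of the class total (CPM). Class-level ratios were formed for genes with at least 20 UMIs, and 1.5-fold (8-fold between classes of a library) was the size counted. Named from the lists were genes past 1.5-fold with an interval clear of 0 and otherwise the 2 with most UMIs. For each member the 4 genes with the highest Pearson r of log2(CPM + 10), of genes with at least 200 UMIs in the control, were named. The values of 2 such genes are not reported here. Cells were thinned to 3000 UMIs with fixed seeds. The scripts were tested on simulated data. Intervals and sums were computed in scipy 1.17.1. Kept cells sum to 61538465 and 73281142 UMIs. Alternatives changed doublets, the mitochondrial and upper UMI limits (2000, the study's own, and 20000), features, integration, resolution, class totals, the scale, the low-count filter, the thinning depth and the denominator.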

Additional observations from a re-analysis of the deposited data

How the results depend on the processing

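No paired analysis was possible because each genotype has 1 library, and for the same reason no library was left out. Alternative values were set against the counting interval of the value reported or, for numbers of genes, against a limit of 1.5-fold. Of 555 such values, 448 stayed within this range, 105 moved beyond it and 2 reversed. The 2 reversed values were ratios past 1.5-fold that changed sign. Changes of sign in smaller ratios, such as those of the members in ganglion cell-like cells given below, were not counted as reversed. Resolutions of 0.4 and 1.6, class totals without mitochondrial, haemoglobin and ribosomal protein genes, and leaving out barcodes found in both libraries moved none of the values they were run on. The last of these, and the deeper ganglion cell-like cluster taken alone, were chosen after seeing the data.

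The limit of 2000 UMIs left 119 control and 167 mutant ganglion cell-like cells, 10.0% and 15.2% of kept cells, and no cell with 3000 UMIs, so that thinned shares have no value there. The ganglion log2 ratios were then 0.08 for *Isl1*, −0.56 for *Pou4f1*, −0.16 for *Pou4f2*, −0.25 for *Ebf1* and 0.51 for *Ebf3*, and those in the mesenchyme −0.55 for *Ebf1* and −1.63 for *Ebf3*. *Pou4f1* in neurogenic precursor-like cells reversed to 0.94 and *Irx5* to −0.88, and 488 (ganglion) and 216 (mesenchyme) genes passed 1.5-fold. At 20000 UMIs *Pou4f1* was at −0.40 and *Ebf3* at −0.14, and 9.40% of mutant cells were ganglion cell-like. With all variable features, *Isl1* was at −0.07 and *Ebf1* at −0.04 and the ganglion shares were 6.05% and 7.30%. The mean over cells of log2(CPM/100 + 1) put *Ebf1* at −0.03. With no low-count filter, 4549 and 4491 genes passed 1.5-fold, against 895 and 776. The causes were not tested.

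Shares of ganglion cell-like cells were 7.99% and 9.67% at a mitochondrial limit of 5%, 19.5% and 24.1% of retinal cells, and 3.35% and 3.81% for the deeper cluster. At the 5% limit *Isl1* was detected in 89.6% and 92.7% and *Ebf1* in 84.8% and 84.9% of the cells. The deeper cluster gave 94.5% and 97.9% for *Isl1*, 90.1% and 92.9% for *Ebf1*, 58.0% for *Pou4f2* in the control, and 99.2% for *Isl1* among mutant *Pou4f2* cells. Thinning to 2000 UMIs gave 77.0% and 77.3% for *Isl1*, 31.7% and 37.3% for *Pou4f2*, 74.3% for *Ebf1* and 8.65% for *Ebf3* in the mutant, and 87.7% for *Isl1* among mutant *Pou4f2* cells. Thinning to 5000 gave 94.9% and 96.6% for *Isl1*, 68.7% in both for *Pou4f2*, 90.8% and 92.5% for *Ebf1*, 23.1% in both for *Ebf3*, 12.3% for *Pou4f1* in the mutant, and 100% in both for *Isl1* among *Pou4f2* cells. Unthinned shares were 70.8% and 72.1% (*Isl1*), 17.4% and 15.5% (*Pou4f1*), 58.9% and 57.7% (*Pou4f2*), 69.0% and 66.7% (*Ebf1*) and 33.6% and 30% (*Ebf3*). The thinning depth sets these levels by construction.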
